A study of Mus musculus with 19 samples.

Results

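The 10 genes S100a1, S100a4, S100a6, S100a8, S100a9, S100a10, S100a11, S100a13, S100a14 and S100a16 are members of the S100 family of small calcium-binding proteins, and were taken by name from the 51707 genes of the tables. They were followed in 19 RNA-seq libraries of cells sorted from pancreatic ductal adenocarcinomas (PDAC) of mice. Tumours were grown in the pancreas of C57BL/6J mice from implanted T-LOH KPC organoids (cultured pancreatic tumour cells). PDPN+ cells, sorted on podoplanin and called cancer-associated fibroblasts in the series text, gave 4 vehicle and 4 neratinib libraries. EpCAM+ cells, sorted on an epithelial adhesion molecule, gave 6 vehicle and 5 neratinib libraries. Treatment lasted 2 weeks, and neratinib is an irreversible inhibitor of ERBB family receptor kinases. All mice are labelled C57BL/6J and all carried the same kind of organoid tumour. The labels used here do not state the organoid's alleles, how many organoid lines there were or how old the mice were. The number in a label was read as the animal (11 mice, 8 of them in both populations), so that each library of a group is a separate mouse. Libraries are named by that number after V (vehicle) or N (neratinib), and values in sequence follow V53175, V53179, V53185 and V53188 for PDPN+ vehicle and N53178, N53180, N53184 and N53194 for PDPN+ neratinib.

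S100 proteins are EF-hand proteins that mostly form dimers and open a binding face for partner proteins when calcium binds. Inside cells they bind annexins, non-muscle myosin and other cytoskeletal proteins, and several are also released and bind receptors such as RAGE (Ager) and TLR4. In pancreatic cancer S100A6, S100A11 and S100A14 are known from tumour epithelium. S100A4 is known as fibroblast-specific protein 1, although other cells also make it. S100A8 and S100A9 together form calprotectin, a major product of neutrophils and monocytes that some epithelia also make.

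All 10 members lie on mouse chromosome 3. RefSeq (GRCm38.p6) places S100a1, S100a13, S100a14 and S100a16 in a row, S100a8 next to S100a9, and S100a11 next to S100a10. S100a1 and S100a13 are read in opposite directions from starts with 104 bases between them, and their RefSeq gene models overlap, although the GENCODE M21 models do not. No source used here gives the strand setting of the counting, so reads near those starts may not be separated between S100a1 and S100a13. Promoter windows were matched for 8 of the 10 members (9 windows, since S100a16 has 2), and S100a10 and S100a14 had no entry. Upstream stretches are shown for the calprotectin pair and the divergent pair, because these neighbours are compared below, and for S100a4 and S100a11, because they hold motif matches. Each is the part of the 250 bases before the RefSeq start that holds no GENCODE M21 exon, 5′ to 3′ on the gene's strand, and for the divergent pair on the strand of S100a13. Capitals mark matches on either strand to the core promoter box TATAAA, the AP-1 site TGANTCA, the GC box GGGCGG or the E-box CACGTG, and none of the marked matches overlap.
S100a8 (chr3:90668821-90668977, plus strand): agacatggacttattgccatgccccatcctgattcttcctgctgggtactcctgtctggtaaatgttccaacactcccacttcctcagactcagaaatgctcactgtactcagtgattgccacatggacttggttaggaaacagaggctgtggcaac
S100a9 (chr3:90695722-90695971, minus strand): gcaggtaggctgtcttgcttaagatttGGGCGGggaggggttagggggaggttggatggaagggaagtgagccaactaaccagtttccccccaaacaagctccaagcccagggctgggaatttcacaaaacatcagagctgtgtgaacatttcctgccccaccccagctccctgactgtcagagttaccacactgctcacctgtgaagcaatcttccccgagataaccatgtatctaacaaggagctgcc
S100a4 (chr3:90603520-90603769, plus strand): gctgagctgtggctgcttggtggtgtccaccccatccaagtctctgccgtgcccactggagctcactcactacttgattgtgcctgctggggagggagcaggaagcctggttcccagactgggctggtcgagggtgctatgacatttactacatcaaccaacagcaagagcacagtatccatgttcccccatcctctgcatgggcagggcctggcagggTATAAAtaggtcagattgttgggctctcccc
S100a11 (chr3:93520246-93520487, plus strand): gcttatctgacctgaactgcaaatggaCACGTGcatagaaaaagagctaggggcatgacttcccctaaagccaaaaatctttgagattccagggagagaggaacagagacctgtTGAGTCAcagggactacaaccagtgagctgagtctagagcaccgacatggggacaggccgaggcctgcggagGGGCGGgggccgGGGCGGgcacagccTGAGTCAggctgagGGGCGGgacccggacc
between S100a1 and S100a13 (chr3:90514393-90514434, plus strand): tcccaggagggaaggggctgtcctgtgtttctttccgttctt
Over 32851 windows of 250 bases, 12.4% held TATAAA, 6.75% TGANTCA, 32.7% GGGCGG and 6.02% CACGTG. Of the 9 member windows, 2 held TATAAA, with its first base 31 bases before the start of S100a4 and 30 before that of S100a8. The S100a8 match lies in the part left out above, which an annotated exon covers. TGANTCA was held by 2 windows, those of S100a11 (2 matches) and 1 of the 2 of S100a16. That S100a16 window, which also holds GGGCGG, is not shown above. GGGCGG was held by 3 windows and CACGTG by that of S100a11 alone. A match is a description of the letters only.

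Reads assigned to genes came to 30.3 to 48.1 M per PDPN+ library and 39.4 to 75.4 M per EpCAM+ library. Levels are given as TPM, a share of all transcripts that allows for transcript length and sequencing depth. Pdpn stood at 333 ± 77.2 TPM (SD, n = 4) in PDPN+ vehicle and 1.42 ± 0.683 (n = 6) in EpCAM+ vehicle libraries, and Epcam at 0.226 ± 0.271 and 409 ± 334. All 10 fibroblast markers were higher and all 10 epithelial markers lower in PDPN+ cells. These lists include Pdpn and Epcam, whose direction the sort itself sets. Within PDPN+ cells 4 of the 10 epithelial markers had too few reads to be tested for neratinib. Of the 8 PDPN+ libraries, V53175 and V53188 detected the fewest genes at 10 reads or more (12102 and 11924, against 13691 to 18602). EpCAM+ libraries V53175, V53176 and N53178 stood apart from the other 8 with Epcam at 582 to 897 TPM (others 114 to 208) and Cdh1 at 175 to 207 TPM (others 569 to 930). The mitochondrial share of reads was 6.14 to 19.4% in PDPN+ and 2.15 to 2.89% in EpCAM+ libraries. Of 6 mesothelial markers 5 were higher in PDPN+ cells, and the list summed to 328 to 1411 TPM there and to 578 to 1014 TPM in EpCAM+ cells. Msln alone held 572 to 1012 TPM in EpCAM+ libraries, nearly all of that sum, and 114 to 664 TPM in PDPN+ libraries. Over all genes tested between the populations, 24.3% were higher and 25% lower in PDPN+ cells. Of the markers of other cells tested, 3 of 6 pericyte, 2 of 6 blood endothelial, 3 of 4 lymphatic endothelial, 5 of 12 macrophage and monocyte, 2 of 3 dendritic cell and 1 of 4 Schwann cell genes were higher in PDPN+ cells. None of 6 pericyte, 6 blood endothelial or 4 lymphatic genes was lower, while 1 macrophage, 1 of 3 lymphocyte, 1 dendritic cell and 1 Schwann cell gene was. Some of these genes had too few reads in 1 of the populations to be tested for neratinib there, so their direction describes where they were detected. The part of these cells and of mesothelial cells in the differences between populations was not tested.

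The members ranged from among the most abundant messages of these cells to nearly absent. The 10 genes together took 0.401 to 0.576% of all TPM in PDPN+ libraries and 0.675 to 0.914% in EpCAM+ libraries. In EpCAM+ vehicle cells S100a6 (3139 TPM at the median) and S100a11 (3046) led, and their ranges overlapped. S100a16 (502), S100a14 (455), S100a10 (449) and S100a1 (330) followed, each overlapping the next, then S100a13 (83.8), S100a4 (24.7), S100a8 (9.51) and S100a9 (3.76). In PDPN+ vehicle cells the order began with S100a11 (1530 TPM at the median) and S100a6 (1182), whose ranges overlapped, then S100a10 (608) and S100a1 (601), which also overlapped. S100a16 (342), S100a13 (164) and S100a4 (66.2) came next, each with a range apart from its neighbours. S100a8 (8.55), S100a9 (6.51) and S100a14 (3.72) came last and overlapped each other. S100a6 ranked 32 and S100a11 ranked 34 by mean TPM among all genes in EpCAM+ vehicle cells, against 84 and 63 in PDPN+ vehicle cells.

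**Figure D1:**
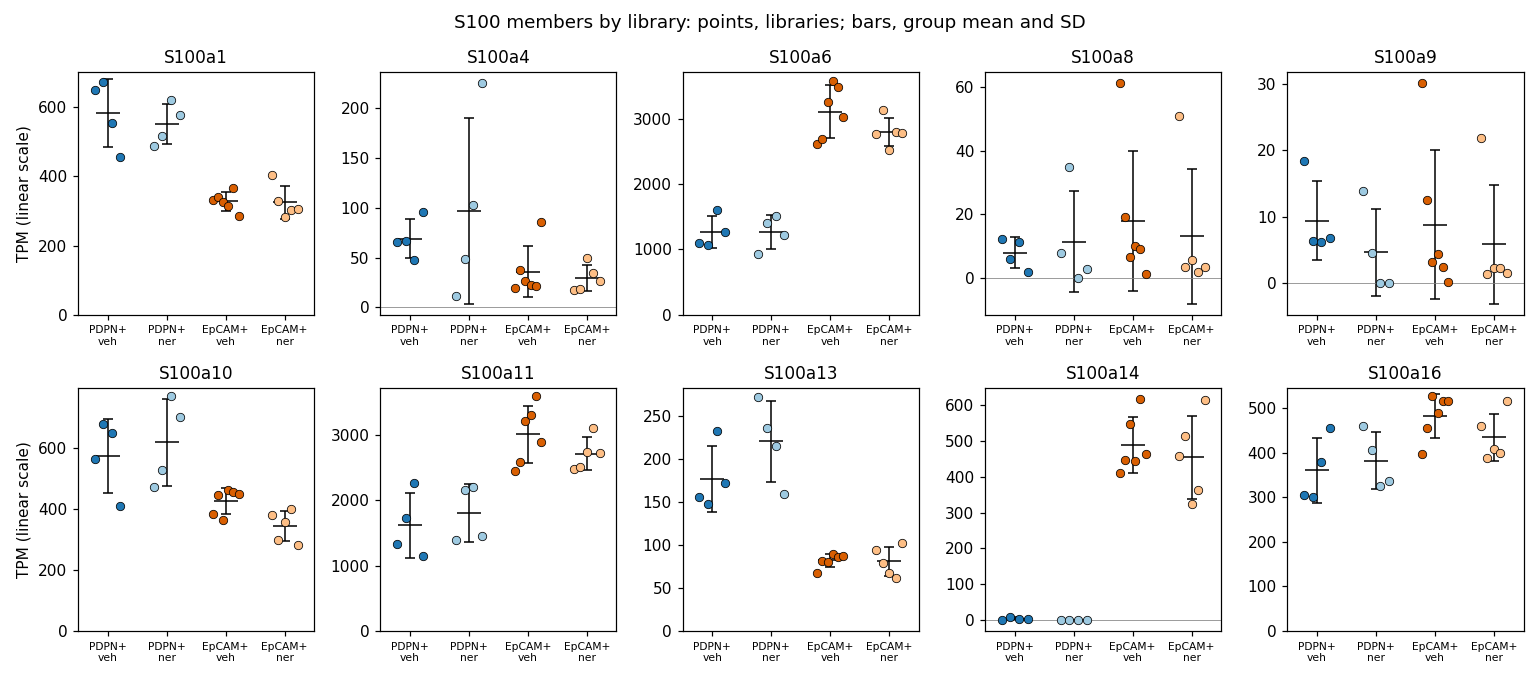
TPM (linear axis) of each S100 member in the 19 libraries of the 4 groups (veh, vehicle, and ner, neratinib), with points for libraries and bars for group mean and SD. Axes begin at 0, or lower in the panels of S100a4, S100a8, S100a9 and S100a14. S100a14 lies at 323 TPM or more in every EpCAM+ library and at 9.06 or less in every PDPN+ library, and S100a1 and S100a13 are higher in every PDPN+ library than in any EpCAM+ library.

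To compare the populations, all 19 libraries were fitted with edgeR on counts, both treatments weighing equally. S100a1, S100a4, S100a10 and S100a13 were higher in PDPN+ cells, S100a6 and S100a14 were lower, and S100a8, S100a9, S100a11 and S100a16 did not pass an adjusted p of 0.05. These 6 calls of 10 stand beside 49.3% called among all 19626 genes tested (24.3% higher and 25% lower), so the share called is near that of genes in general. The median member difference was 0.33 on the log2 scale, against -0.13 over all genes. No overlap in TPM between the populations was seen for 5 of 10 members, against 22.1% of all genes tested. The scale matters here. With limma on log2(TPM + 1) the median shift per gene was -0.57 over the 15224 genes tested both ways. Calls went from 4761 higher and 4912 lower to 2773 higher and 7541 lower. On that scale 8 of 10 members were called, beside 66% of genes, S100a11 and S100a16 being added as lower in PDPN+ cells. In all 31 alternatives S100a1, S100a4, S100a10 and S100a13 stayed positive and S100a6 and S100a14 negative.

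S100a14, an epithelial S100 protein, differed most. In PDPN+ vehicle libraries it stood at 0, 9.06, 3.85 and 3.58 TPM, and in PDPN+ neratinib libraries at 0, 0, 0.362 and 0.0867 TPM. EpCAM+ vehicle libraries ran from 410 through a median of 455 to 617 TPM, and the EpCAM+ neratinib libraries held 458, 514, 323, 362 and 613. The populations did not overlap, and the log2 difference was -8.93 (SE 0.82, 95% interval -10.66 to -7.21, adjusted p = 6.1e-08). The 3 PDPN+ libraries at 0 had no read of S100a14, which allows up to 3 reads in each. The PDPN+ library with the most reads of it, V53179, had 322. Epcam stood at 0.54 TPM or less and the epithelial marker list summed to 275 to 1266 TPM in PDPN+ libraries (18390 to 25240 in EpCAM+ libraries), a list that includes keratins made by mesothelial cells too. The part of such cells in the S100a14 reads of PDPN+ libraries was not tested.

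S100a1 and S100a13 were both higher in PDPN+ cells. S100a1 is best known as a regulator of calcium handling in muscle, and S100a13 takes part in the release of FGF1 and IL-1 alpha, proteins with no signal peptide. S100a1 stood at 649, 672, 553 and 456 TPM in PDPN+ vehicle and 489, 518, 620 and 576 in PDPN+ neratinib libraries. In EpCAM+ vehicle libraries it ran from 284 through a median of 330 to 367, and in EpCAM+ neratinib libraries it stood at 405, 329, 283, 304 and 305 TPM. All 8 PDPN+ libraries lay above all 11 EpCAM+ libraries, with a log2 difference of 1.31 (SE 0.12, adjusted p = 8.4e-08). S100a13 stood at 156, 148, 232 and 172 TPM in PDPN+ vehicle and 272, 236, 216 and 159 in PDPN+ neratinib libraries, against 62.0 to 103 in EpCAM+ libraries. Its groups did not overlap either, and the log2 difference was 1.80 (SE 0.16, adjusted p = 4.8e-08). The ratio of S100a1 to S100a13, whose starts face away from each other, was 3.44 ± 1.08 (SD, n = 4) in PDPN+ vehicle and 4.03 ± 0.582 (n = 6) in EpCAM+ vehicle libraries. Both were higher in PDPN+ cells in 8 of 8 mice with both populations.

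S100a10, the p11 subunit of the annexin A2 complex, had a log2 difference of 1.15 (SE 0.12, adjusted p = 3.0e-07) toward PDPN+ cells. It stood at 566, 679, 650 and 410 TPM in PDPN+ vehicle, 474, 528, 774 and 703 in PDPN+ neratinib, and 284 to 462 in EpCAM+ libraries. Only PDPN+ vehicle library V53188 lay within the EpCAM+ range, and S100a10 was higher in PDPN+ cells in 7 of 8 mice. Anxa2, the annexin it pairs with, differed by -0.18 (SE 0.13, adjusted p = 0.27). In TPM, S100a10 over Anxa2 was 0.285 ± 0.0951 (SD, n = 4) in PDPN+ vehicle and 0.414 ± 0.151 (n = 4) in PDPN+ neratinib libraries. The ratio was 0.125 ± 0.0135 (n = 6) in EpCAM+ vehicle and 0.133 ± 0.0151 (n = 5) in EpCAM+ neratinib libraries. The lowest PDPN+ ratio (0.166) lay above the highest EpCAM+ ratio (0.153).

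**Figure D2:**
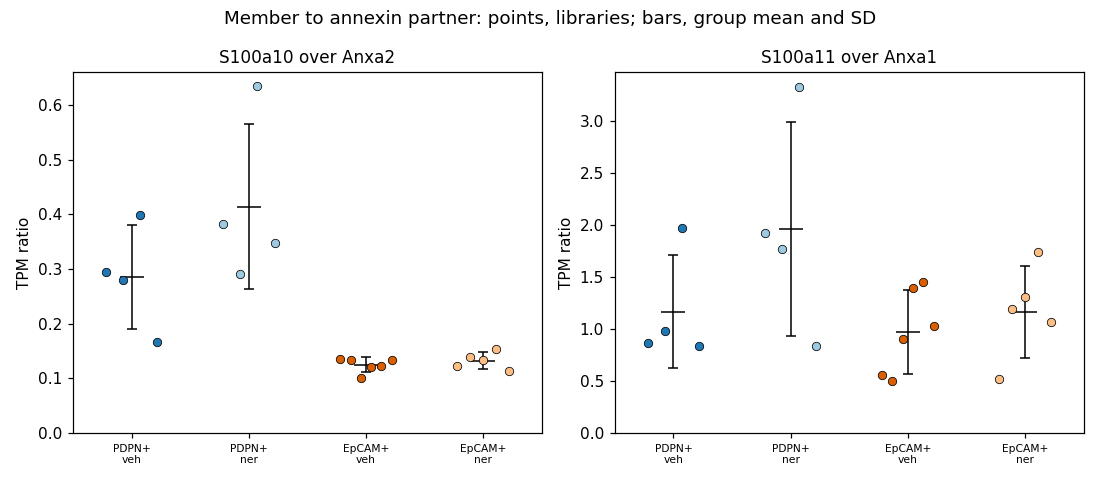
TPM ratios of S100a10 to Anxa2 (left) and of S100a11 to Anxa1 (right) by library (points), with group mean and SD, in the 4 groups (veh, vehicle; ner, neratinib). The S100a10 to Anxa2 ratio is at least 0.166 in every PDPN+ library and at most 0.153 in every EpCAM+ library, while the S100a11 to Anxa1 ratios of the populations overlap.

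S100a4 was higher in PDPN+ cells but varied widely. Its PDPN+ vehicle libraries stood at 65.6, 66.8, 47.8 and 95.4 TPM and its PDPN+ neratinib libraries at 11.6, 48.7, 103 and 226 TPM. EpCAM+ vehicle libraries ran from 19.3 through a median of 24.7 to 86.0, and EpCAM+ neratinib libraries held 17.8, 18.5, 49.4, 34.7 and 26.6 TPM. The ranges overlapped. PDPN+ library N53178 lay below all EpCAM+ libraries, and EpCAM+ library V53192 lay within the PDPN+ range. EpCAM+ library N53184 (49.4 TPM) also lay above PDPN+ libraries V53185 (47.8) and N53180 (48.7). The log2 difference was 1.95 (SE 0.45, 95% interval 1.01 to 2.88, adjusted p = 0.0013). On log2(TPM + 1) with no filter, where 35.5% of genes were called, the call was lost (1.11, adjusted p = 0.057). Although S100a4 is named for fibroblasts, it ranked 1699 by mean TPM in PDPN+ vehicle cells, below 6 other members.

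S100a6 and S100a11 are the abundant pair, and in TPM both lay below their EpCAM+ levels in every PDPN+ library. S100a6, or calcyclin, is known from proliferating and tumour cells. S100a6 stood at 1094, 1073, 1605 and 1270 TPM in PDPN+ vehicle and 925, 1403, 1514 and 1227 in PDPN+ neratinib libraries, against 2516 to 3581 in EpCAM+ libraries. Its log2 difference on counts was -0.66 (SE 0.11, adjusted p = 8.5e-05), and -0.50 (adjusted p = 0.063) among neratinib libraries alone, where 34.6% of genes were called. S100a11, a partner of annexin A1, stood at 1331, 1728, 2263 and 1142 TPM in PDPN+ vehicle and 1388, 2148, 2206 and 1447 in PDPN+ neratinib libraries, against 2448 to 3585 in EpCAM+ libraries. On counts, S100a11 differed by only -0.23 (SE 0.12, adjusted p = 0.12), while on log2(TPM + 1) it differed by -0.77 (adjusted p = 2.5e-05). Relative to the median gene of each scale these are -0.10 and -0.14, and among neratinib libraries alone the difference on counts was 0.01. S100a11 was called in 7 of 31 alternatives. Beside the 3 settings on TPM, the call appeared on counts with no filter on low counts (-0.34, adjusted p = 0.033), without PDPN+ vehicle library V53185 (adjusted p = 0.034), without PDPN+ neratinib library N53180 (0.044) and without PDPN+ neratinib library N53184 (0.0083). S100a11-ps, a processed pseudogene that could share its reads, was at 0 to 1.78 TPM.

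S100a16 depended on the scale for its direction. It stood at 305, 301, 379 and 456 TPM in PDPN+ vehicle, 461, 406, 325 and 336 in PDPN+ neratinib, and 389 to 527 in EpCAM+ libraries, which overlapped. The log2 difference was 0.24 on counts (SE 0.14, adjusted p = 0.16) and -0.31 on log2(TPM + 1) (adjusted p = 0.014). Relative to the median gene it was 0.37 and 0.32.

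**Figure D3:**
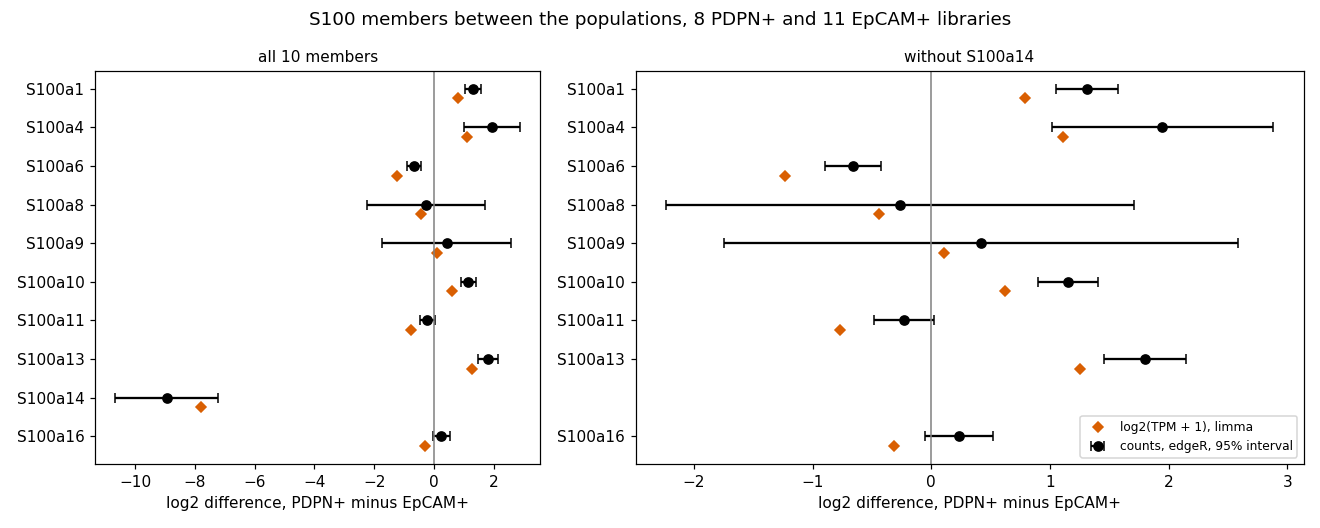
Log2 difference, PDPN+ minus EpCAM+, of the 10 members (left) and of 9 without S100a14 (right): black points are edgeR on counts with 95% intervals, and diamonds are log2(TPM + 1) with limma. The diamonds of S100a11 and S100a16 lie at -0.77 and -0.31, and those of the 4 members higher in PDPN+ cells stay above 0.

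S100a8 and S100a9, the calprotectin genes, were low and uneven in both populations. S100a8 stood at 12.3, 5.73, 11.4 and 1.85 TPM in PDPN+ vehicle and 7.89, 34.8, 0 and 2.60 in PDPN+ neratinib libraries. EpCAM+ vehicle libraries held from 0.995 through a median of 9.51 to 61.4 TPM and EpCAM+ neratinib libraries 50.9, 3.23, 5.52, 1.91 and 3.41. S100a9 stood at 18.4, 6.29, 6.17 and 6.72 TPM in PDPN+ vehicle and 13.9, 4.50, 0 and 0 in PDPN+ neratinib libraries. Its EpCAM+ vehicle libraries ran from 0.154 through a median of 3.76 to 30.2, and its EpCAM+ neratinib libraries held 21.9 TPM in N53178 and 1.30 to 2.22 TPM in the other 4. The log2 differences between populations were -0.26 (SE 0.94, 95% interval -2.24 to 1.71) and 0.42 (SE 1.03, -1.75 to 2.59), with adjusted p of 0.84 and 0.76. Without EpCAM+ libraries V53175, V53176 and N53178 they were 1.48 (adjusted p = 0.21) and 2.26 (adjusted p = 0.10), where 45.4% of genes were called.

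Those same 3 EpCAM+ libraries, which also stood apart in Epcam and Cdh1, held the 3 highest levels of both genes among EpCAM+ libraries. V53175, V53176 and N53178 carried 61.4, 19.2 and 50.9 TPM of S100a8 and 30.2, 12.6 and 21.9 TPM of S100a9. The other 8 EpCAM+ libraries held 0.995 to 10.1 TPM of S100a8 and 0.154 to 4.42 TPM of S100a9. In PDPN+ cells the highest S100a9 levels came from libraries of the same mice, V53175 (18.4 TPM) and N53178 (13.9 TPM), while the mouse of V53176 has no PDPN+ library here. S100a8 was highest in PDPN+ library N53180 (34.8 TPM), where S100a9 stood at 4.50. The gene most like S100a9 over the 19 libraries was Il1r2, a decoy receptor for interleukin 1, with a root mean square difference of centred log2 CPM (depth-normalised counts) of 0.81. Il1b (0.92) and S100a8 (1.34) followed, and S100a9 itself had an SD of 2.35 on that scale. Il1r2 was also the gene most like S100a8 (1.17). In EpCAM+ libraries V53175, V53176 and N53178 Il1r2 stood at 24.3, 12.5 and 16.4 TPM, against 1.70 to 4.66 TPM in the other 8. These points share library and depth, and Il1r2 is on the neutrophil list as well.

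Of the 14 neutrophil markers, 1 was higher and 3 lower in PDPN+ cells among the 11 tested, beside 24.3% and 25% of all genes. Within PDPN+ cells only 4 had enough reads to be tested for neratinib, and Cd177 had no read there. Lower calls can thus describe where a gene was detected. The list summed to 2.73 to 31.5 TPM in PDPN+ libraries and 184 to 815 TPM in EpCAM+ libraries, where Ltf alone held 181 to 775. Without Ltf the sum was 41.9, 20.2 and 40.3 TPM in EpCAM+ libraries V53175, V53176 and N53178, and 2.97 to 13.8 TPM in the other 8, a sum that includes Il1r2 itself. Ly6g, a defining neutrophil marker, stood at 0.739, 3.94 and 1.61 TPM in those 3 libraries and at 0 to 3.07 TPM in the other 8. In PDPN+ cells Ly6g was at 0 in all vehicle libraries and at 0.0403 TPM or less in neratinib libraries. Mpo was at 0 in every EpCAM+ vehicle library, at 0 to 0.126 TPM in EpCAM+ neratinib, 0 to 2.43 TPM in PDPN+ vehicle and 0 to 0.168 TPM in PDPN+ neratinib libraries. EpCAM+ library N53178 was the only library with reads of all 14 markers. Csf3r, the receptor for granulocyte colony-stimulating factor, stood at 1.62 and 1.73 TPM in EpCAM+ libraries V53175 and N53178, at 0.230 TPM in V53176 and at 0.285 to 0.890 TPM in the other 8. In PDPN+ cells Csf3r was highest in N53178 (11.9 TPM), which held the second highest S100a9 level, and lay at 0.00784 to 2.65 TPM in the other 7, with 0.0743 TPM in V53175, which held the highest. Macrophage and monocyte markers summed to 101 to 671 TPM in PDPN+ and 250 to 527 TPM in EpCAM+ libraries, and PDPN+ neratinib library N53184, which was highest (Lyz2 at 301 TPM), had no read of S100a8 or S100a9. In bulk samples fewer cells of a type and less RNA per cell cannot be told apart, and the part of leukocytes in the S100a8 and S100a9 levels was not tested.

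**Figure D4:**
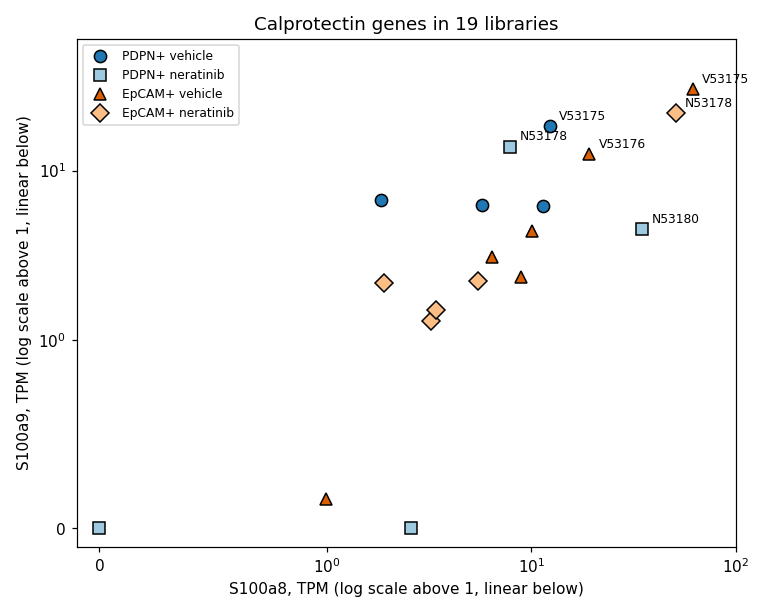
S100a8 against S100a9 in 19 libraries, both in TPM on axes that are logarithmic above 1 and linear below, with symbols for the 4 groups and names on libraries with more than 15 TPM of S100a8 or 12 of S100a9. EpCAM+ libraries V53175, V53176 and N53178 lie at the upper right with 19.2 to 61.4 TPM of S100a8, and PDPN+ libraries N53184 and N53194 lie at 0 for S100a9.

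The 7 other S100 family genes were low in PDPN+ cells, where only S100b had enough reads to be tested for neratinib. Between the populations 6 of the 7 were tested, 5 of them through their EpCAM+ levels alone, so the direction of those 5, all lower in PDPN+ cells, is a description of where they were detected. S100b did not pass (-1.20, SE 0.67, adjusted p = 0.15), and S100a7l2 had no reads in any group. S100a3 stood at 12.9 to 22.1 TPM in EpCAM+ vehicle and 0 to 3.05 in PDPN+ vehicle cells (log2 difference -3.60, SE 0.91, adjusted p = 0.0030). S100g (calbindin-D9k) stood at 1.67 to 20.8 TPM and 0 to 0.892 TPM in the same groups (-3.51, SE 1.26, adjusted p = 0.027). S100a5 and S100z had no read in any PDPN+ library, which puts S100a5 at least 59.8-fold and S100z at least 15.9-fold higher in EpCAM+ cells, counting 3 reads over all PDPN+ libraries as the limit. The S100-fused genes of the epidermal differentiation complex were mostly silent: 2 of 7, Tchh and Crnn, were tested, and both were lower in PDPN+ cells, where 1 of the 7 had enough reads to be tested for neratinib.

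Of the 17 binding partners of S100 proteins, 3 were higher and 7 lower in PDPN+ cells, beside 49.3% called among all genes tested. Their median log2 difference was -0.40. Within PDPN+ cells 1 of the 17 had too few reads to be tested for neratinib, so its direction describes where it was detected. Fgf1, a growth factor that S100a13 helps to release, was higher (4.23, SE 0.39, adjusted p = 6.1e-08), as was the myosin heavy chain Myh10 (3.63, SE 0.28, adjusted p = 5.8e-09). Il1a, another cargo of S100a13, was lower (-5.99, SE 1.04, adjusted p = 1.0e-04). In EpCAM+ vehicle cells Il1a was at 66.7 ± 27.1 TPM (SD, n = 6) and Fgf1 at 9.21 ± 8.88, and in PDPN+ vehicle cells Fgf1 was at 77.3 ± 38.4 (n = 4). Anxa1 was lower (-0.77, SE 0.24, adjusted p = 0.011), and S100a11 over Anxa1 was 1.17 ± 0.544 (SD, n = 4) in PDPN+ vehicle and 0.973 ± 0.402 (n = 6) in EpCAM+ vehicle libraries. Ezr and Iqgap1, cytoskeletal linkers bound by S100 proteins, were lower (-2.06, SE 0.29, and -1.64, SE 0.17).

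Of 6 receptors of released S100 proteins tested, 1 was higher and 4 lower in PDPN+ cells, beside 49.3% called among all genes tested. The median log2 difference of the 6 was -2.59. Cd36, 1 of the 6, had no read in any PDPN+ library and was tested through its EpCAM+ level alone. Its direction describes where it was detected. Ager, which encodes RAGE, was the higher one (3.54, SE 0.93, adjusted p = 0.0039), but its level was low and uneven, at 7.81 ± 9.00 TPM (SD, n = 4) in PDPN+ vehicle and 0.578 ± 0.194 (n = 6) in EpCAM+ vehicle cells. Tlr4 was lower (-2.57, SE 0.54, adjusted p = 6.5e-04), at 0.0282 to 6.69 TPM in PDPN+ and 12.5 to 22.4 TPM in EpCAM+ libraries. Bsg (basigin, a receptor for S100A9) was lower (-2.60, SE 0.26, adjusted p = 1.9e-07) and the most abundant of the list, at 3702 ± 608 TPM in EpCAM+ vehicle cells. Alcam was lower as well (-5.36, SE 0.76, adjusted p = 1.1e-05). In the plasminogen system, which S100A10 with annexin A2 activates at the cell surface, 3 genes were higher and 1 was lower of 5 tested. The share called over all genes is again 49.3%. Plat, the tissue activator, was higher in PDPN+ cells (1.65, SE 0.24, adjusted p = 1.3e-05), and Plaur, the urokinase receptor, was lower (-2.07, SE 0.25, adjusted p = 1.4e-06). No gene of these lists passed in the neratinib comparisons or their interaction.

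The response to neratinib was measured against vehicle separately in the 2 populations. In PDPN+ cells 0 of 10 members passed, beside 0 of 14437 genes (0%) tested with edgeR, and 331 genes had an unadjusted p under 0.05 (2.29%). DESeq2 called 13 genes (0.0924%) and no member. TPM ranges that do not overlap were found in 2.81% of genes and in no member. Of the members, 7 had a positive and 3 a negative log2 difference, with a median of 0.17 (0.06 over all genes). S100a13 differed by 0.43 (SE 0.32, 95% interval -0.28 to 1.14) and S100a11 by 0.28 (SE 0.26, -0.29 to 0.85). The intervals of S100a1 (-0.57 to 0.54), S100a6 (-0.45 to 0.64), S100a10 (-0.36 to 0.77), S100a11 and S100a16 (-0.50 to 0.78) left out a 2-fold change either way. Those of S100a13, S100a4 (-1.39 to 2.21), S100a8 (-3.20 to 4.39) and S100a9 (-5.24 to 3.25) were not.

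S100a14 was the only member whose interval left out 0 in PDPN+ cells (log2 difference -4.99, SE 2.17, 95% interval -9.78 to -0.19, adjusted p = 1.00). It stood at 0, 9.06, 3.85 and 3.58 TPM with vehicle and at 0, 0, 0.362 and 0.0867 TPM with neratinib. Of the 4 vehicle libraries 3 lay above all neratinib libraries, and V53175 had no read. With all 19 libraries in 1 fit it was called (-4.93, adjusted p = 0.041), beside 111 genes in all (0.566%). All these levels are small beside the 323 TPM or more of EpCAM+ cells. Epithelial markers did not all move the same way in these libraries. The list of 10 summed to 301 to 1266 TPM with vehicle and 275 to 1180 TPM with neratinib, and of its 6 genes tested 5 had a positive and 1 a negative difference, none passing. Epcam, which was not tested, was 0 to 0.540 TPM with vehicle and 0 to 0.153 TPM with neratinib. Elf3, an epithelial transcription factor, stood at 0.0173, 3.85, 1.52 and 0.015 TPM with vehicle and at 0, 5.39, 17.6 and 0.137 TPM with neratinib. Cldn4, a tight junction gene, stood at 0, 12.9, 0.976 and 0 TPM with vehicle and at 0.0204, 0.0369, 7.25 and 7.02 TPM with neratinib. The part of epithelial cells in the S100a14 difference was not tested.

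In EpCAM+ cells 0 of 10 members passed, beside 0 of 17200 genes (0%) with edgeR, and 524 genes had an unadjusted p under 0.05 (3.05%). DESeq2 called 8 genes (0.0466%) and no member. All 10 members had a negative log2 difference, from -0.66 to -0.08, with a median of -0.22, whereas 50.2% of all genes tested were negative and the median over them was 0.00. The 95% intervals of S100a10 (-0.37, SE 0.12, -0.64 to -0.10) and S100a6 (-0.22, SE 0.094, -0.42 to -0.01) left out 0, with adjusted p of 1.00 for both. S100a10 stood at 364 to 462 TPM (median 449) with vehicle and at 382, 301, 359, 400 and 284 TPM with neratinib, so that the groups overlapped, with 3 of 5 neratinib libraries below all vehicle libraries. Anxa2, its partner, differed by -0.47 (SE 0.11, 95% interval -0.72 to -0.23, adjusted p = 1.00). It stood at 3448 ± 360 TPM (SD, n = 6) with vehicle and 2608 ± 337 (n = 5) with neratinib, and the groups overlapped because N53178 (3097) lay above V53175 (2832). S100a6 ranges overlapped, 2614 to 3581 TPM with vehicle and 2516 to 3129 with neratinib. S100a16 (-0.22, SE 0.10, 95% interval -0.45 to 0.01) and S100a11 (-0.20, SE 0.11, -0.44 to 0.03) were near this size. No member had TPM ranges that did not overlap, against 0.401% of genes tested. The highest and lowest bounds over the members other than S100a4, S100a8 and S100a9 were 0.23 and -0.64, so a 2-fold change lies outside their intervals. Of 210 values under the alternatives, 4 turned positive, 1 each for S100a4, S100a8, S100a9 and S100a13, and none of the 210 passed.

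**Figure D5:**
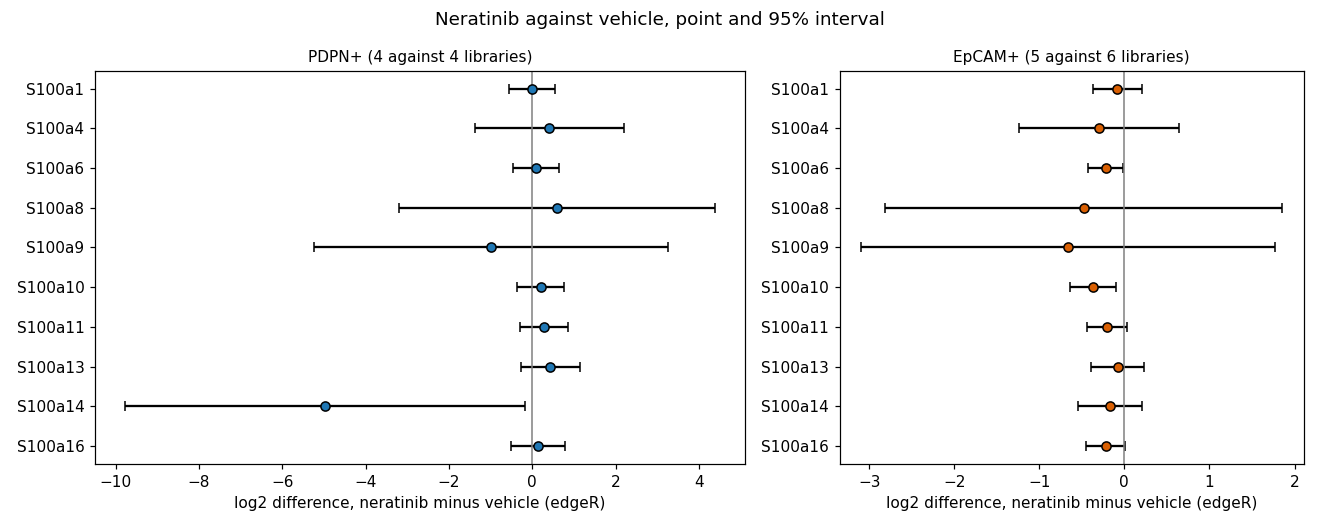
Log2 difference, neratinib minus vehicle, of the 10 members in PDPN+ (left, 4 against 4 libraries) and EpCAM+ cells (right, 5 against 6), as edgeR points with 95% intervals on axes of different range. All 10 points lie below 0 in EpCAM+ cells and 7 of 10 above 0 in PDPN+ cells, and only the intervals of S100a14 in PDPN+ cells and of S100a6 and S100a10 in EpCAM+ cells exclude 0.

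The difference between the neratinib effects of the populations was tested as an interaction over 19 libraries. No member passed, beside 0.0662% of 19626 genes (13 called), with 2190 genes at an unadjusted p under 0.05 (11.2%). Of the members' differences, PDPN+ effect minus EpCAM+ effect, 8 of 10 were positive (median 0.42, against 0.02 over all genes). S100a14 came nearest (-4.79, SE 1.23, adjusted p = 0.15), and was called by DESeq2 (adjusted p = 0.010), which called 633 genes (3.34%). It was also called without PDPN+ vehicle library V53175 (-5.19, adjusted p = 0.0079, 0.62% of genes), and without both V53175 and V53188 (-5.34, adjusted p = 0.0027, 2.62% of genes). S100a10 followed (0.57, SE 0.24, 95% interval 0.06 to 1.08, adjusted p = 0.37).

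Transcript use is only described here, as far as Salmon assigns reads among transcripts of 1 gene, and differences in it were not tested. S100a4-202 took 4.82 to 20.4% of S100a4 TPM in EpCAM+ libraries and 0 to 1.53% in PDPN+ libraries. Its level was low, with a mean of 4.78 TPM in EpCAM+ vehicle and 2.92 TPM in EpCAM+ neratinib libraries. S100a6-202, annotated as a retained intron, took 9.08 to 16.2% of S100a6 TPM in EpCAM+ libraries and 0.956 to 13.8% in PDPN+ libraries, with medians of 12.5 and 3.64% in the vehicle groups. S100a11 and S100a13 have 1 transcript each in the tables, and S100a14-202 led S100a14 in EpCAM+ cells, with a median of 79.3% in vehicle libraries. Among the other members, the genes nearest in pattern over the 19 libraries were Cfi for S100a14 (0.99), Lgmn for S100a4 (0.64), Selenow for S100a1 (0.17), Rpl32 for S100a6 (0.19), Ncl for S100a11 (0.19), Uqcrq for S100a10 (0.23), Dlgap4 for S100a13 (0.24) and Capzb for S100a16 (0.18), each as a root mean square difference of centred log2 CPM. On that scale the members' own SDs were 5.29 for S100a14, 1.26 for S100a4, 0.95 for S100a13 and 0.70 for S100a1. They were 0.63 for S100a10, 0.41 for S100a6, 0.29 for S100a16 and 0.28 for S100a11. Where the SD is small, a small difference can mean only that both genes varied little.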

How the data were processed

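RNA of sorted PDPN+ and EpCAM+ cells was extracted with a micro column kit and made into libraries with a low-input kit, with PCR cycles set by RNA amount, per the labels' protocols. Salmon 1.9.0 and the builds GRCm39/mm39 are named, per the submitters' processing notes. Per the file headers, the authors' tables give estimated counts (not normalised) and TPM per transcript. The strand setting and transcriptome release were not given in the sources used here. Of 147828 transcripts, 137063 matched GENCODE M21 (GRCm38, used for names) and were summed to 51707 genes, and counts were rounded. Unmatched transcripts held 1.77 to 8.96% of reads. Levels are TPM and differences come from edgeR 4.0.16 in R 4.3.3 (TMM, filterByExpr, robust quasi-likelihood F-test), with Benjamini-Hochberg adjustment over all genes and calls under 0.05. The script was tested on simulated data. No molecular identifiers mark PCR copies, so the limit for 0 reads (3) covers counting error only.

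The members and the 17 lists were chosen with earlier results of these data known. Beside the members, the rule named up to 3 genes per list that were called between populations with the largest mean CPM (2 where none was called), genes called for neratinib or in the interaction, a fixed set (Pdpn, Epcam, Anxa2, Anxa1, Ager, Tlr4) and the 3 genes nearest each member in pattern. Not all are printed. Cdh1, Ltf, Ly6g, Mpo, Lyz2 and several partners, receptors and other family genes were added after their values were seen.

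Alternatives tried were no filter on low counts, DESeq2 1.42.0, edgeR with DESeq2's factors, limma 3.58.1 on log2(TPM + 1 or 0.1), voom with sample weights, other sets of libraries, mouse as a replicate block, and leaving out each library. Mice pair the populations through the number in the labels, which was read as the animal. Deviations from group means correlated by -0.107 to 0.0306 within the 8 mice, and in 2 of 8 mice the libraries correlated best with their own mouse.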

Additional observations from a re-analysis of the deposited data

Results flagged for a closer look

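Of 40 tests of members by group, 5 had 1 library far from the others by Dixon's ratio of the gap to the range. Chance gives about 1 in 20 groups where values are normally distributed. The ratio was taken on linear TPM, where S100a4, S100a8 and S100a9 were uneven, so that rate may not hold for them. S100a4 stood at 86.0 TPM in EpCAM+ vehicle library V53192 against 19.3 to 38.1 in the other 5. S100a8 stood at 61.4 TPM in EpCAM+ vehicle library V53175 (others 0.995 to 19.2) and at 50.9 TPM in EpCAM+ neratinib library N53178 (others 1.91 to 5.52). S100a9 stood at 18.4 TPM in PDPN+ vehicle library V53175 (others 6.17 to 6.72) and at 21.9 TPM in EpCAM+ neratinib library N53178 (others 1.30 to 2.22). Of the 5, 4 are calprotectin genes in the mice of V53175 and N53178.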

How the results depend on the processing

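Between the populations 6 members were called, and 5 to 8 under the alternatives, 6 to 7 with each library left out. S100a16 turned from 0.24 (not called) to -0.31 (called lower) with limma on log2(TPM + 1), on log2(TPM + 0.1) and on log2(TPM + 1) with no filter. With mouse as a replicate block the same 6 members were called between populations and 0 in the interaction, over all genes 6792 were called against 9673, and in the interaction 0 against 13. The block changed no other call of a member. For neratinib in PDPN+ cells the count was 0, and 1 (S100a14) with all 19 libraries in 1 fit. Leaving out each library gave 0 to 0 in both neratinib comparisons. For the interaction the count was 0, and 1 (S100a14) with DESeq2 and without both PDPN+ vehicle libraries that stand apart, and 0 to 1 with each library left out. Calls over all genes in the interaction were 13 with edgeR, 633 with DESeq2, 572 without those 2 libraries, 3, 11 and 2 on the TPM settings, 4 with voom, 1 without the 3 EpCAM+ libraries that stand apart, and 9 to 131 with each library left out. For neratinib they were 0 with edgeR and 13 (PDPN+) and 8 (EpCAM+) with DESeq2. Between populations 5421 were called with vehicle and 5838 with neratinib libraries alone. With voom the split was 3950 higher and 6216 lower, and with the block 2595 and 4197. The cause of these shifts was not tested. Fits without libraries that stand apart, and a fit with the digit of a file-name code as a covariate, were chosen after the data were seen, and the latter called no member for neratinib. Precision is limited most for S100a8, S100a9 and S100a14, which were low in PDPN+ cells, and for S100a4. S100a4 was not low in PDPN+ cells but varied widely there, from 11.6 to 226 TPM with neratinib.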
